A study of Mus musculus with 24 samples.

Results

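The 10 genes described here encode small leucine-rich proteoglycans (SLRPs): Dcn, Lum, Bgn, Fmod, Prelp, Ogn, Omd, Aspn, Kera and Podn. They were matched by gene symbol, all 10 were found among the 18368 genes of the expression table, and all 10 passed the filter on low values (at least 0.5 FPKM in 4 libraries) in each comparison below. RNA was sequenced from full-thickness skin of CD1 mice, an outbred stock, that were 7 weeks old when wounded. Each of 12 mice was wounded at a single site with a 2 mm punch, 4 mice on the abdomen, 4 on the back and 4 on the cheek, and the wound and adjacent unwounded skin of the same mouse were collected on day 3. The 24 libraries therefore form 6 groups of 4, unwounded skin and day 3 wound at each site, and the labels name no allele and no treatment other than wounding. Cheek mice carried 1 wound each, and abdomen and back mice 2 each. The unwounded sample came from a wounded animal, so a response of the skin next to a wound cannot be told apart from the state of skin in an unwounded mouse.

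SLRPs are secreted proteins of the extracellular matrix, made in skin mainly by dermal fibroblasts, in which a run of leucine-rich repeats binds collagen. Many carry glycosaminoglycan chains: chondroitin or dermatan sulphate on decorin and biglycan, and keratan sulphate on several class II members such as lumican, fibromodulin and keratocan. On collagen fibrils they set fibril diameter and spacing, and they also bind growth factors of the TGF-beta family, while soluble biglycan is known as a ligand of the innate immune receptors TLR2 and TLR4. The class I genes here are Dcn (decorin), Bgn (biglycan) and Aspn (asporin), the class II genes are Lum (lumican), Fmod (fibromodulin), Prelp, Kera (keratocan) and Omd (osteomodulin), Ogn (osteoglycin, or mimecan) belongs to class III, and Podn (podocan) to class V.

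Levels are given in FPKM, fragments scaled by transcript length and by the mapped fragments of the library, and so can be compared between genes. The summed FPKM of a library ranged from 490830 to 561753 in unwounded skin and from 532586 to 608888 in wounds, and 15781 to 16577 genes were above 0. Depth is not given in the table. From 148 genes whose low values stepped like single reads, the relative depth of the libraries was estimated at 0.894 to 1.02. A single library stood apart. In unwounded cheek skin of mouse 4, the summed FPKM of 5 keratins of the growing hair follicle was 4296, against at most 68.5 in any other library. The same library had the lowest sum of 10 fibroblast markers (1155 against up to 2312 FPKM across unwounded skin) and the lowest sum of the 10 SLRP genes (2169 against up to 5176 FPKM). Calls of SLRP genes that change without this mouse are given with and without it.

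In unwounded skin the family was dominated by Dcn, which restrains the lateral growth of collagen fibrils. Its mean was 2828 ± 414 FPKM (SD, n = 4) on the abdomen, 2167 ± 274 on the back and 2088 ± 617 on the cheek, and it made up 62.5% ± 2.60 (SD, n = 12) of the summed FPKM of the 10 genes. Lum followed at 565 ± 169 FPKM (SD, n = 12) and Bgn at 388 ± 61.7. The 3 most abundant members kept the order Dcn, Lum, Bgn at all 3 sites, although the ranges of Lum and Bgn overlapped on the back and cheek. Aspn at 172 ± 36.3, Ogn at 133 ± 30.8 and Prelp at 82.0 ± 21.4 FPKM formed a middle tier, in which the ranges of Aspn and Ogn overlapped at every site. Podn was at 32.5 ± 8.05 FPKM, Omd at 11.8 ± 2.92 and Fmod at 11.8 ± 3.87, whereas Kera, best known from the corneal stroma, was lowest at every site with 1.85 ± 0.73 FPKM. The 10 genes together held 0.401% to 1.02% of all FPKM in unwounded skin and 0.422% to 0.655% in wounds, with the lowest value of unwounded skin in cheek mouse 4.

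**Figure D1:**
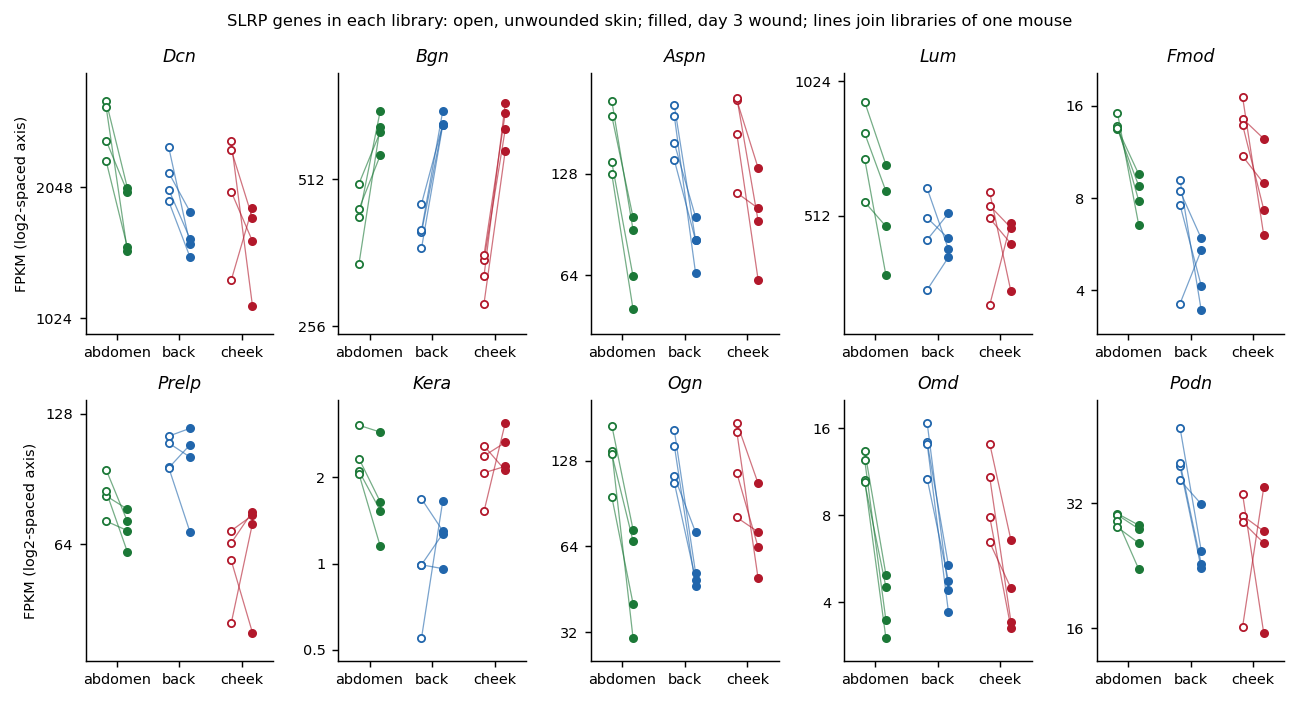
FPKM of each SLRP gene (vertical axis, log2-spaced) in every library by site, with open circles for unwounded skin, filled circles for day 3 wounds and a line for each of the 12 mice. Every line of Bgn goes up, every line of Aspn, Ogn and Omd goes down, and cheek mouse 4 has the lowest unwounded value of Dcn (1252 FPKM).

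The study asked how day 3 wounds differ from the paired unwounded skin. Changes are differences in log2(FPKM + 0.5) between wound and unwounded skin of the same mouse, and a gene was called at a limma adjusted p under 0.05. Across the mean of the 3 sites, Bgn rose and Omd, Ogn, Aspn, Fmod and Dcn fell, while Lum, Prelp, Kera and Podn were not called. Wounding moved much of the transcriptome, and with the same model 62.7% of the 14423 genes tested were called, 33.3% higher and 29.4% lower, so 6 called of 10 SLRP genes is close to that background. The direction was less even. Of the 6 called members 1 was higher and 5 were lower, and the median log2 change of the 10 genes was -0.42, against 0.02 over all genes. By site, 6 members were called on the abdomen (background 32.9%), 5 on the back (45.9%) and 4 on the cheek (36.6%), with Bgn the only one that was higher at each site. At the stricter adjusted p under 0.001, 4 members remained called for the mean of the sites, namely Bgn, Omd, Aspn and Ogn, beside 33.4% of all genes. Without cheek mouse 4 the count for the mean of the sites was 8 rather than 6, since Lum and Podn were then called as lower. In bulk skin, fewer cells that express a gene and less RNA per cell cannot be told apart.

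Bgn, the class I relative of Dcn, was the member that rose. On the abdomen its FPKM was 344, 501, 445 and 428 in the unwounded skin of mice 1 to 4 and 656, 639.9, 573 and 706 in their wounds. On the back the unwounded values were 399, 402, 456 and 369.8 and the wound values 664, 706, 662 and 660.2. On the cheek the unwounded values were 285, 349, 358 and 325 and the wound values 586, 648, 699 and 731. The lowest wound library of any site lay above the highest unwounded library of any site, so the 12 wounds and the 12 unwounded samples did not overlap, as for 5.57% of all genes in this direction. The log2 change was 0.59 (SE 0.10, limma adjusted p = 0.00131) on the abdomen, 0.73 (SE 0.10, limma adjusted p = 0.000142) on the back and 1.02 (SE 0.10, limma adjusted p = 1.6e-05) on the cheek, the last being a 2.02-fold rise. Over the 3 sites it was 0.78 (SE 0.06, limma adjusted p = 2.9e-07). Bgn was higher in the wound of 12 of 12 mice, which gave an exact sign-change p of 0.000488, the smallest that 12 mice allow, and 14.4% of all genes were also higher in every mouse. The wound values of the 3 sites came together within a narrow band (coefficient of variation 7.14% over 12 wounds, against 15.9% over the unwounded libraries). Bgn is on the X chromosome, and RNA of Y-linked genes was present in all 24 libraries.

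Aspn, Omd and Ogn lie next to each other on chromosome 13 with the related gene Ecm2, and all 4 fell on wounding. In the RefSeq annotation of GRCm38.p6 the cluster spans 119.7 kb of chromosome 13, from 49504810 to 49624501, in the order Ecm2, Aspn, Omd, Ogn, all on the plus strand, with gaps of 11.7, 14.9 and 15.4 kb and no other protein-coding gene between them. The 250 bases before the annotated start of each of these genes, and of Bgn, are shown because Bgn went the opposite way to the genes of the cluster. Such windows were found for 8 of the 10 genes, not for Dcn or Lum. They are from RefSeq on GRCm38.p6, 5′ to 3′ on the plus strand, and capitals mark matches on either strand to TATAAA, the core promoter element known as the TATA box, to CCAAT, the element bound by the factor NF-Y, or to GGGCGG, the GC box bound by the factor Sp1.
Bgn, chrX:73483351-73483600: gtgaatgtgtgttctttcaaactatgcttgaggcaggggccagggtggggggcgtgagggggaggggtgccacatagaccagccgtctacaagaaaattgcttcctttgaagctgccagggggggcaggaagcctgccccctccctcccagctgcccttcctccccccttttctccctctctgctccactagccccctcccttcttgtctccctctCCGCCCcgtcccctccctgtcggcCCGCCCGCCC
Ecm2, chr13:49504560-49504809: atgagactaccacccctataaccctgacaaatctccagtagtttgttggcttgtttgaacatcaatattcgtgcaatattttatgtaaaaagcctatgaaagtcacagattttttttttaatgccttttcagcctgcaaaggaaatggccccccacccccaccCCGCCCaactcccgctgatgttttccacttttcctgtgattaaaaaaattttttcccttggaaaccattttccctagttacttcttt
Aspn, chr13:49544193-49544442: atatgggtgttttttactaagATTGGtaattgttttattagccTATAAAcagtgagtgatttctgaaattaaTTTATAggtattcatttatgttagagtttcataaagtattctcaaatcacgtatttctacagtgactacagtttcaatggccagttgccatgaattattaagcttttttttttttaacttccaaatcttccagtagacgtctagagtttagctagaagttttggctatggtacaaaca
Omd, chr13:49582212-49582461: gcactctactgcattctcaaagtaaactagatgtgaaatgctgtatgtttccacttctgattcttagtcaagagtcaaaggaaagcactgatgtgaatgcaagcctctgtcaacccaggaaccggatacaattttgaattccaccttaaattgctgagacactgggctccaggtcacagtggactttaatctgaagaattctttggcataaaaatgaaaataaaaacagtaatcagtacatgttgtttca
Ogn, chr13:49607765-49608014: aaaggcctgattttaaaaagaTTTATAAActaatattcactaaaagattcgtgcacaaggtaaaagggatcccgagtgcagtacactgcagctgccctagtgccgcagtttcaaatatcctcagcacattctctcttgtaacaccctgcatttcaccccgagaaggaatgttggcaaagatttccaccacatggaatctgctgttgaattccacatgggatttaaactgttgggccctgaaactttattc
The Bgn window was GC-rich, with 64.4% G and C and 3 GC-box matches within the last 34 bases, 2 of which overlapped. The windows of the cluster held 30.0% (Aspn), 38.4% (Omd), 40.0% (Ecm2) and 42.0% (Ogn) G and C, beneath the median of 52.4% over 32851 mouse windows of the same length. A GC box was matched in Ecm2 of these 4, and TATA-box letters in Aspn and Ogn, more than 170 bases before the start in each case; 32.7% of all windows hold the GC-box letters, 33.9% the CCAAT letters and 12.4% the TATA letters. The letters TGANTCA (AP-1) and TTCCNGGAA (STAT) and the NF-kB motif, searched on both strands, were in none of the 5 windows and are in 6.75%, 0.913% and 0.356% of all windows. Such matches describe letters only. Among windows not shown, those of Podn, which was called lower on the back, held 78.0% and 64.0% G and C. Outside the 10 genes, the window of Chadl, called lower over the 3 sites, held 65.2%. Those of Tsku, called higher, held 68.0% and 69.2%. A link between G and C content and the direction of change was not tested.

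Omd, a keratan sulphate proteoglycan known from bone and dentine, had the lowest mean log2 change of the 10 genes. Its FPKM on the abdomen was 10.6, 13.4, 12.5 and 10.4 in unwounded skin and 3.00, 4.98, 3.46 and 4.51 in wounds. On the back it was 14.3, 10.7, 14.2 and 16.7 in unwounded skin and 5.36, 4.73, 3.70 and 4.40 in wounds. On the cheek it was 14.2, 10.8, 7.90 and 6.44 in unwounded skin and 6.56, 3.42, 3.25 and 4.47 in wounds. Wounds lay below all unwounded libraries on the abdomen and back, as for 11.0% and 15.4% of all genes, and on the cheek the highest wound, of mouse 1, slightly exceeded the lowest unwounded library, of mouse 4. The log2 change was -1.46 (SE 0.16, limma adjusted p = 5.8e-05) on the abdomen, -1.51 (SE 0.16, limma adjusted p = 1.8e-05) on the back and -1.06 (SE 0.16, limma adjusted p = 0.000381) on the cheek. For the 3 sites together it was -1.34 (SE 0.09, limma adjusted p = 1.3e-07), or 0.394 times the unwounded level on this scale.

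Aspn, which inhibits TGF-beta signalling in cartilage, showed the same direction at a level more than 10 times that of Omd. On the abdomen its FPKM was 138, 211, 128 and 190.0 in unwounded skin and 63.5, 87.1, 50.7 and 95.03 in wounds. On the back the values were 158, 141, 189.9 and 204 in unwounded skin and 95.2, 81.2, 64.9 and 81.2 in wounds. On the cheek they were 212, 215, 168 and 112 in unwounded skin and 133, 92.9, 62.1 and 101 in wounds. The groups overlapped on the cheek alone, where the wound of mouse 1 exceeded the unwounded skin of mouse 4. The log2 change was -1.18 (SE 0.18, limma adjusted p = 0.000641) on the abdomen, -1.10 (SE 0.18, limma adjusted p = 0.000493) on the back and -0.86 (SE 0.18, limma adjusted p = 0.0032) on the cheek. The mean over sites was -1.05 (SE 0.11, limma adjusted p = 3.8e-06).

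Ogn, a class III member that binds collagen, followed the other genes of the cluster. On the abdomen its FPKM was 95.5, 169.9, 138 and 135 in unwounded skin and 40.3, 73.3, 30.5 and 66.8 in wounds. On the back it was 113, 107, 144 and 163 in unwounded skin and 71.8, 49.0, 46.6 and 51.7 in wounds. On the cheek the unwounded values were 174, 161, 116 and 80.9 and the wound values 107, 49.5, 63.7 and 72.0. Abdomen and back wounds were again all below the unwounded libraries, while on the cheek the wound of mouse 1 exceeded the unwounded skin of mouse 4, the lowest of its group. The log2 change was -1.40 (SE 0.24, limma adjusted p = 0.00158) on the abdomen, -1.26 (SE 0.24, limma adjusted p = 0.00152) on the back and -0.86 (SE 0.24, limma adjusted p = 0.0174) on the cheek, with -1.17 (SE 0.14, limma adjusted p = 2.2e-05) over the 3 sites. The cheek call was lost when cheek mouse 2 (log2 change -0.58, limma adjusted p = 0.0955) or cheek mouse 3 (-0.85, limma adjusted p = 0.0545) was left out. Aspn, Omd and Ogn were each lower in the wound of 12 of 12 mice (exact sign-change p = 0.000488 for each, the smallest possible), and 9.81% of all genes were lower in every mouse. Ecm2, an SLRP-related gene outside the 10, was at 49.4 ± 12.4 FPKM in unwounded skin and 18.7 ± 6.06 in wounds (SD, n = 12 each), a log2 change over the sites of -1.40 (limma adjusted p = 5.0e-06).

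Dcn, the most abundant member, also fell over the 3 sites. On the abdomen its FPKM was 2349.8, 3218, 3125 and 2619 in unwounded skin and 1490.0, 2039, 1459.7 and 1996 in wounds. On the back it was 2022, 1902, 2532 and 2212 in unwounded skin and 1561, 1417, 1518 and 1800.1 in wounds. On the cheek it was 2495, 2608, 1999.7 and 1252 in unwounded skin and 1740.4, 1096, 1540.4 and 1839 in wounds. Abdomen and back wounds did not overlap unwounded skin, while on the cheek mouse 4 went the other way from the remaining 11 mice. The log2 change over the 3 sites was -0.52 (SE 0.12, limma adjusted p = 0.00248), and the exact sign-change p over 12 mice was 0.00391. By site it was -0.70 (SE 0.21, limma adjusted p = 0.0231) on the abdomen, -0.46 (SE 0.21, limma adjusted p = 0.0931) on the back and -0.40 (SE 0.21, limma adjusted p = 0.158) on the cheek, so that only the abdomen was called. That call was lost without abdomen mouse 1, 2 or 3 (limma adjusted p = 0.0586, 0.0571 and 0.108). The back was called without cheek mouse 2 or 4 (limma adjusted p = 0.0395 and 0.0246), with quantile normalization (log2 change -0.64, limma adjusted p = 0.0233) and in a fit of the 8 back libraries alone (limma adjusted p = 0.00976), and the cheek without cheek mouse 4 (log2 change -0.72, limma adjusted p = 0.00768). Lum and Kera, which lie beside Dcn on chromosome 10, were not called at any site.

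**Figure D2:**
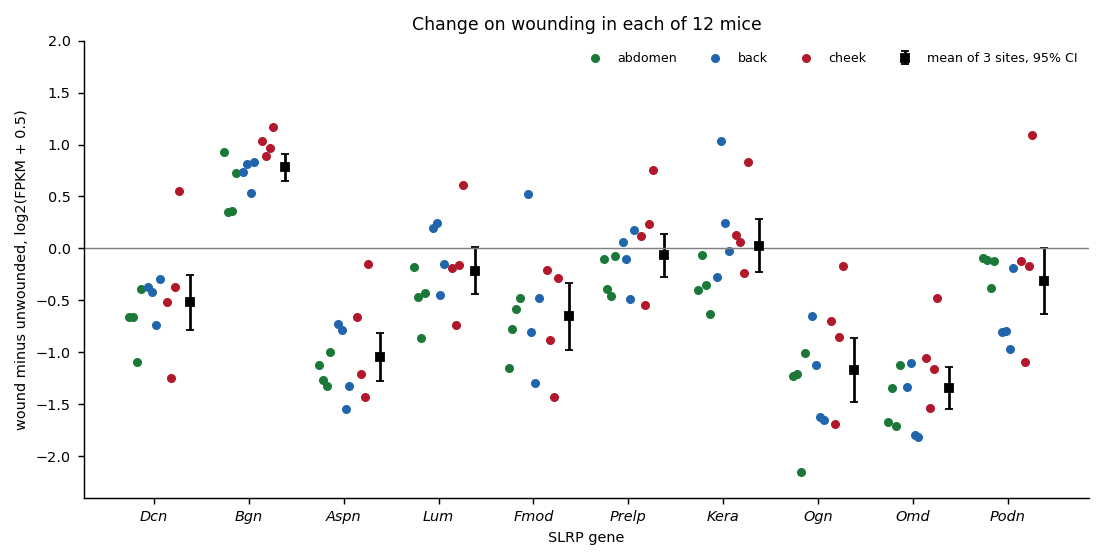
Difference between wound and unwounded skin in log2(FPKM + 0.5) (vertical axis) for each SLRP gene in each of 12 mice, coloured by site, with the limma mean of the 3 sites and its 95% confidence interval as a black square. Bgn lies above 0 in 12 of 12 mice, Aspn, Ogn and Omd lie below 0 in 12 of 12, and the mean interval of Lum, Prelp, Kera and Podn includes 0.

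Among the class II genes, Fmod, which directs the early steps of collagen fibril assembly, fell over the 3 sites by 0.65 on the log2 scale (SE 0.15, limma adjusted p = 0.00237), and in 11 of 12 mice. On the abdomen its FPKM was 15.2, 13.8, 13.4 and 13.5 in unwounded skin and 6.54, 7.85, 8.77 and 9.57 in wounds. On the back the corresponding values were 3.62, 7.61, 9.18 and 8.44 and 5.41, 4.14, 3.44 and 5.91, and on the cheek 14.6, 13.9, 17.2 and 10.97 and 12.5, 7.34, 6.05 and 8.94. The groups were separate on the abdomen and overlapped on the back, where the unwounded skin of mouse 1 was far below the other 3, and on the cheek. Site by site the log2 change was -0.75 on the abdomen (limma adjusted p = 0.0436), -0.52 on the back (limma adjusted p = 0.122) and -0.70 on the cheek (limma adjusted p = 0.052). The abdomen call was lost without any of abdomen mice 1 to 4, back mice 2 and 4 or cheek mouse 2 (limma adjusted p up to 0.157), and without the filter on low values (limma adjusted p = 0.0526). The back was called without back mouse 1 (log2 change -0.86, limma adjusted p = 0.0112), and the cheek without back mouse 1 or 3 or cheek mouse 1 (limma adjusted p = 0.0167, 0.0355 and 0.0482). The cheek was also called with a pseudocount of 1 FPKM (limma adjusted p = 0.0468), with median-ratio scaling (0.0397), with quantile normalization (0.0292) and without the mouse as a block (0.0246).

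Lum, which spaces collagen fibrils and is the second most abundant SLRP of unwounded skin, was not called. Its FPKM on the abdomen was 549, 920.1, 686 and 783 in unwounded skin and 484, 666, 377 and 581 in wounds. On the back the values were 452, 349, 589 and 506 in unwounded skin and 518, 413, 431 and 455 in wounds, and on the cheek 505, 577, 539 and 323 and 443, 346, 481 and 494. Groups overlapped at every site. The mean log2 change was -0.22 with a 95% confidence interval from -0.44 to 0.01 (limma adjusted p = 0.0901), and without cheek mouse 4 it was -0.30 and called (limma adjusted p = 0.0100). On the abdomen it was -0.49 (limma adjusted p = 0.0563) and was called without cheek mouse 2 or 4 (limma adjusted p = 0.033 and 0.0205), with quantile normalization (-0.67, limma adjusted p = 0.0272) and in a fit of the 8 abdomen libraries alone (limma adjusted p = 0.0421). The mean of the sites was also called with quantile normalization (limma adjusted p = 0.0439). Podn, which restrains smooth muscle growth in culture, was at 32.5 ± 8.05 FPKM in unwounded skin and 25.8 ± 4.99 in wounds (SD, n = 12 each). Its log2 change was -0.69 on the back, where wounds (22.3 to 31.9 FPKM) and unwounded skin (36.4 to 48.7) did not overlap (limma adjusted p = 0.0422), -0.18 on the abdomen (limma adjusted p = 0.621) and -0.07 on the cheek (limma adjusted p = 0.852). The back call was lost without any of abdomen mice 1 to 4, back mice 1 to 3 or cheek mice 1 and 3 (limma adjusted p up to 0.144), and the mean of the sites was called without cheek mouse 4 (log2 change -0.44, limma adjusted p = 0.00153) and without the mouse as a block (limma adjusted p = 0.0267).

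Prelp, a basement membrane and collagen anchor that lacks glycosaminoglycan chains, was not called at any site. On the abdomen its FPKM was 82.7, 95.1, 84.8 and 72.4 in unwounded skin and 77.2, 72.3, 61.5 and 68.8 in wounds. On the back it was 114, 109.5, 96.2 and 96.0 in unwounded skin and 118, 102, 68.4 and 108 in wounds. On the cheek it was 68.8, 58.8, 64.4 and 42.1 in unwounded skin and 74.6, 40.1, 76.1 and 71.4 in wounds. Both states overlapped at every site. The mean log2 change was -0.07 (95% confidence interval -0.27 to 0.14, limma adjusted p = 0.547). Kera had a mean log2 change of 0.03 (95% confidence interval -0.23 to 0.28, limma adjusted p = 0.856) at levels of 0.55 to 3.09 FPKM. At these levels the pseudocount of 0.5 FPKM compresses the fold changes of Kera.

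Markers of other cell types moved with wounding in the same libraries, and their part in the changes of the SLRP genes was not tested. The summed FPKM of 6 neutrophil markers was 8.45 to 37.8 in unwounded skin and 346 to 2390.0 in wounds, and all 6 were called higher at each site. All 7 macrophage markers were called higher over the 3 sites, with sums of 707 to 1517 in unwounded skin and 1438 to 2780.0 in wounds. All 5 adipocyte markers were called lower over the 3 sites, with sums of 427 to 1263 in unwounded skin and 342 to 787 in wounds, and 6 skeletal muscle markers likewise, with sums of 463 to 20510.0 and 1604 to 6289. Of 6 epidermal keratinocyte markers 3 were called higher and 1 lower, with sums of 5437 to 10210.0 in unwounded skin and 10130.0 to 18280.0 in wounds. All but 1 of 5 endothelial markers were called higher (sums of 71.7 to 109 and 109 to 137), all 4 proliferation markers were (16.3 to 77.7 and 41.6 to 83.7), and 2 of 3 tested T cell markers were called lower (16.2 to 47.5 and 13.8 to 31.3). Of 10 fibroblast markers, 5 were called higher and 4 lower, and their sum was 1155 to 2312 FPKM in unwounded skin and 1467 to 2220.0 in wounds. The 4 fibroblast markers that fell were Clec3b, Dpt, Cd34 and Pi16, and those that rose were Vim, Loxl1, Pdgfra, Mfap5 and Thy1.

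The opposite changes of Bgn and Dcn altered the make-up of the family within each library, a measure that does not depend on scaling between libraries. The ratio of Dcn to Bgn FPKM was 6.60 ± 0.408 (SD, n = 4) in unwounded abdomen and 2.71 ± 0.391 in abdomen wounds. On the back it was 5.33 ± 0.549 and 2.35 ± 0.295, and on the cheek 6.41 ± 2.15 and 2.35 ± 0.537. The ratio was lower in the wound of 12 of 12 mice, and the wound range over all sites (1.69 to 3.19) lay below the unwounded range (3.85 to 8.75). The ratio restates the changes of Bgn and Dcn given above, and no share over other gene pairs is given. Bgn took 10.6% ± 2.02 of the summed FPKM of the 10 genes in unwounded skin and 22.1% ± 2.86 in wounds (SD, n = 12 each), whereas Dcn took 62.5% ± 2.60 and 53.6% ± 2.85. Bgn thereby stood above Lum in the wounds of all 3 sites on average, with ranges that did not overlap on the back and cheek. Lum, at 14.9% ± 1.90 and 15.6% ± 1.33, kept a similar share. Relative to Dcn, Ogn and Omd were lower in 12 of 12 wounds and Aspn in 11 of 12, while Prelp was lower in 0 of 12 and Lum in 1 of 12.

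**Figure D3:**
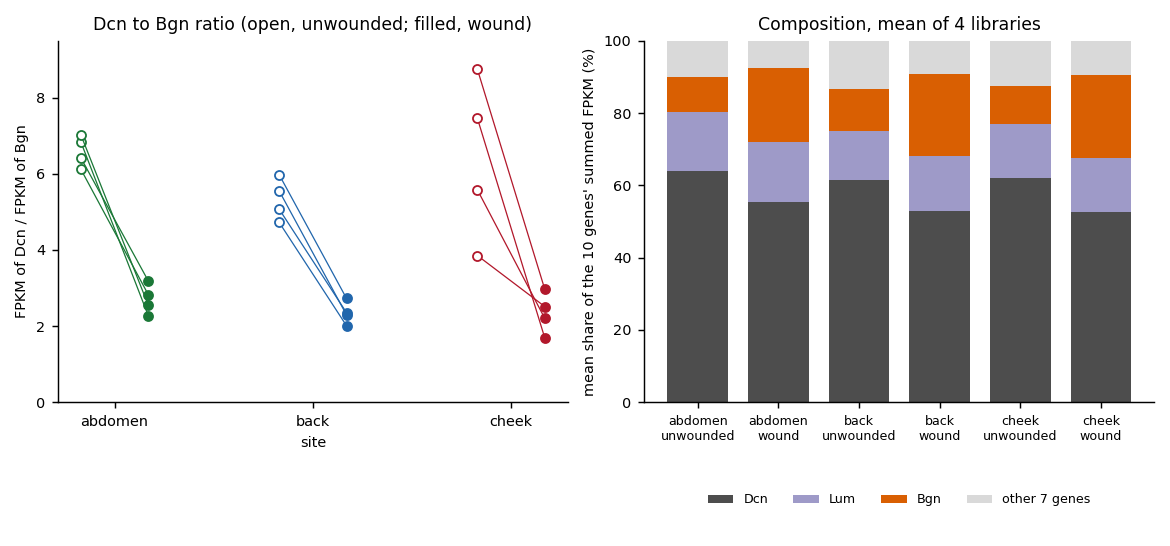
Left, ratio of Dcn to Bgn FPKM in unwounded skin (open) and day 3 wounds (filled) by site, a line for each mouse. Right, mean percent of the summed FPKM of the 10 SLRP genes held by Dcn, Lum, Bgn and the other 7 genes in each group of 4 libraries; every line on the left goes down, to between 1.69 and 3.19, and the Bgn share goes up from 10.6% to 22.1% over all sites.

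Whether the response of an SLRP gene differed between sites was tested directly, because a call at one site and not another does not show a difference. No member was called in the limma F test over the 3 wound effects, in which 3 of 14423 genes (0.0208%) were, and Bgn was the only member below 0.05 before adjustment (F = 4.33, limma adjusted p = 0.350). Between back and abdomen 0% of genes and no member were called. The change of Bgn on the cheek exceeded that on the abdomen by 0.42 on the log2 scale (95% confidence interval 0.11 to 0.74, limma adjusted p = 0.334), a contrast in which 0.00693% of genes were called. Against the back, a contrast with 0.0277% of genes called, the cheek difference was 0.29 (95% confidence interval -0.03 to 0.60). For Omd the change on the cheek minus that on the back was 0.45 (95% confidence interval -0.05 to 0.96), and for Ogn the change on the cheek minus that on the abdomen was 0.55 (95% confidence interval -0.21 to 1.30). The intervals of Omd and Ogn include 0 and also differences as large as the mean change of some members. For Podn, called on the back alone, the change on the cheek minus that on the back had an interval from -0.16 to 1.40.

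Skin of the 3 sites has different embryonic origins, and the study compared the unwounded samples between sites. With the limma fit used here few genes were called in the table as a whole. The share was 2.67% of 13956 between back and abdomen, 2.57% between cheek and abdomen and 1.05% between cheek and back. Among the 10 genes 2, 0 and 1 were called for these pairs. The paper, with its own analysis, reported a larger share of genes as different across sites. It counted genes that differed between any of the sites, whereas each share here is for a single pair, so these shares are unlike measures. At an unadjusted p under 0.05 the limma fit gave Lum, Fmod, Kera and Podn between back and abdomen, and Dcn, Lum, Bgn and Prelp between cheek and abdomen. Between cheek and back it gave Bgn, Fmod, Prelp, Omd, Kera and Podn. The share of all genes at that unadjusted threshold was not computed, here or for wounds. These names therefore have no background beside them and do not show that members differed more often than other genes. Of the called members, Kera and Fmod were lower on the back than on the abdomen, and Prelp was lower on the cheek than on the back. Fmod, with the values given above, was lower in each of the 4 back libraries than in each abdomen or cheek library. Its log2 difference was -0.98 (SE 0.23, limma adjusted p = 0.0409) between back and abdomen, and 0.98 (SE 0.23, limma adjusted p = 0.0615) between cheek and back. Kera was at 2.32, 3.03, 2.10 and 2.05 FPKM on the abdomen, 1.68, 0.55, 0.99 and 0.99 on the back and 2.37, 2.07, 2.57 and 1.52 on the cheek. The back was below the abdomen in all libraries, with 1 back library, of mouse 1, inside the range of the cheek. The log2 difference between back and abdomen was -0.92 (SE 0.21, limma adjusted p = 0.0399). The median of all genes was itself shifted by -0.12 between back and abdomen and by 0.14 between cheek and back, and after median-ratio scaling the differences of Fmod and Kera were -0.86 and -0.84 and were not called (limma adjusted p = 0.0925 and 0.0763). With quantile normalization they were -0.89 and -0.86 (limma adjusted p = 0.0804 and 0.0762), and without the filter on low values -0.98 and -0.92 (limma adjusted p = 0.0564 and 0.0536). Without abdomen mice 1 to 3, back mice 2 and 4 or cheek mice 1 and 2, each left out in turn, both calls were lost, and so was that of Fmod without abdomen mouse 4 and that of Kera without back mouse 3 (limma adjusted p up to 0.118 for Fmod and 0.138 for Kera). The cheek to back difference of Fmod was called without back mouse 1 (0.70, limma adjusted p = 0.0475).

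Prelp had the opposite pattern to Fmod, its neighbour on chromosome 1, with the highest values on the back. The cheek value was 68.8, 58.8, 64.4 and 42.1 FPKM, below all abdomen and all back libraries, and every back library was above every abdomen library. The lowest back library was at 95.97 FPKM and the highest abdomen library at 95.09. Back and abdomen differed by 0.31 on the log2 scale (95% confidence interval -0.003 to 0.63, limma adjusted p = 0.232), which was not called. The log2 difference between cheek and back was -0.84 (SE 0.15, limma adjusted p = 0.0168), and between cheek and abdomen -0.53 (SE 0.15, limma adjusted p = 0.0714). The first was lost without back mouse 1 or 2 (limma adjusted p = 0.0521 and 0.0574), and the second was called without abdomen mouse 4 (limma adjusted p = 0.0467). The paper described less Prelp in cheek skin. Across the 12 unwounded libraries the Prelp to Fmod ratio ranged from 3.75 to 31.4, with means of 6.003 on the abdomen, 16.9 on the back and 4.14 on the cheek. The highest ratio was that of back mouse 1, and without it the back ranged from 10.5 to 14.4 with a mean of 12.1. Podn was likewise higher in each back library (36.4 to 48.7 FPKM) than in each abdomen (28.0 to 30.2) or cheek library (16.1 to 33.8), with log2 differences of 0.47 from the abdomen (limma adjusted p = 0.168) and -0.63 between cheek and back (limma adjusted p = 0.113). Without cheek mouse 4 the first of these was called (limma adjusted p = 0.0257). Bgn was lower in each cheek library (285 to 358 FPKM) than in each back library (370 to 456), a log2 difference of -0.31 (limma adjusted p = 0.207). Of all genes, 2.20% were lower in all 4 cheek than in all 4 back libraries and 12.4% were higher. Between back and abdomen 10.7% were lower and 2.59% higher in all back libraries, and between cheek and abdomen 4.49% were lower in all cheek libraries. Sums of 6 skeletal muscle markers and 6 tendon and fascia markers also varied between sites (medians of 7633, 16540.0 and 15960.0 FPKM, and of 37.8, 88.2 and 47.6 FPKM, on abdomen, back and cheek), and their part in these differences was not tested.

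In the main fit Dcn, Lum, Aspn, Ogn and Omd were not called between any sites in unwounded skin. Aspn differed by 0.07 on the log2 scale between back and abdomen (95% confidence interval -0.41 to 0.55) and Ogn by -0.02 (-0.55 to 0.51). Lum was higher on the abdomen on average, with a difference of -0.63 between back and abdomen (limma adjusted p = 0.129). In a limma model over all 24 libraries this difference was called (adjusted p = 0.0483). In wounds no member was called between sites. Of 14023 genes, 1.27% were called between back and abdomen, 10.8% between cheek and abdomen and 2.50% between cheek and back. At an unadjusted p under 0.05 the same limma fits gave Fmod and Prelp between back and abdomen. They gave Fmod, Kera and Prelp between cheek and back, and 0 members between cheek and abdomen. The share of all genes at that threshold was not computed, so these names have no background beside them. Fmod was lower in each back wound (3.44 to 5.91 FPKM) than in each abdomen (6.54 to 9.57) or cheek wound (6.05 to 12.5), as in unwounded skin. The difference between cheek and back wounds was 0.80 on the log2 scale (limma adjusted p = 0.0642). Kera was higher in each cheek wound (2.11 to 3.09 FPKM) than in each back wound (0.96 to 1.65), by 0.74 (limma adjusted p = 0.0661), and this difference was called without abdomen mouse 2 (limma adjusted p = 0.0384), as was that between cheek and abdomen wounds (0.63, limma adjusted p = 0.0400). Bgn had 95% confidence intervals of -0.12 to 0.25 between back and abdomen wounds, -0.14 to 0.24 between cheek and abdomen and -0.21 to 0.17 between cheek and back. Of all genes, 5.33% were lower in all back than in all abdomen wounds and 17.2% higher in all cheek than in all back wounds.

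**Figure D4:**
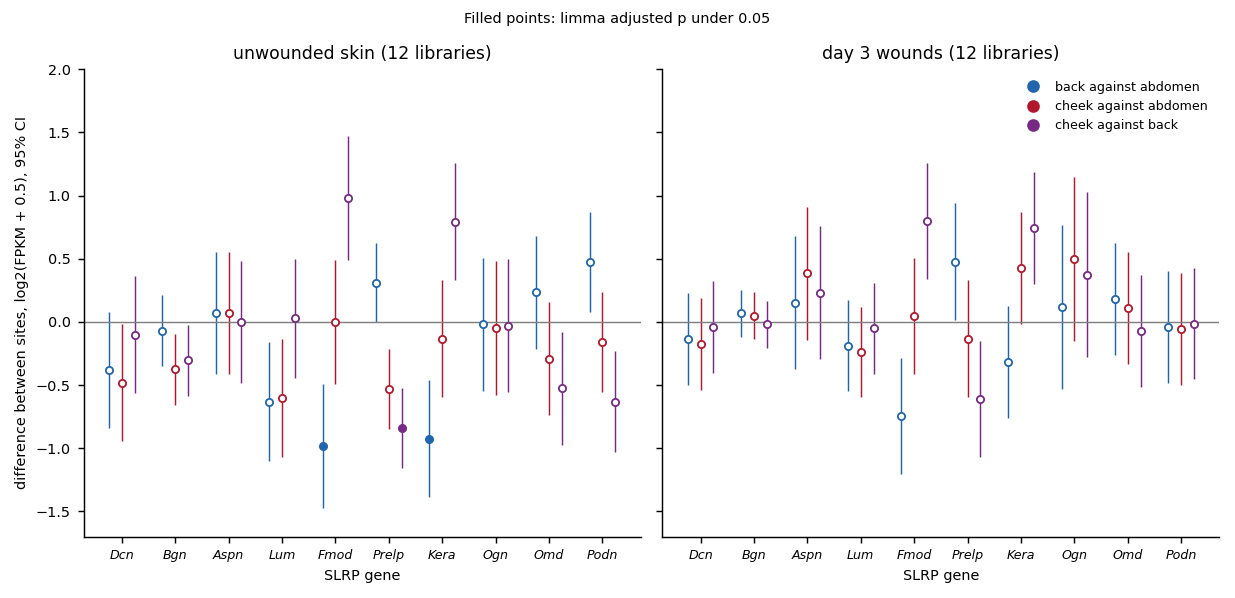
Difference between sites in log2(FPKM + 0.5) (vertical axis) with its 95% confidence interval for each SLRP gene in unwounded skin (left) and in day 3 wounds (right), 4 libraries a site, with filled points where the limma adjusted p was under 0.05. Fmod and Kera between back and abdomen and Prelp between cheek and back are filled on the left, and no point is filled on the right.

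The 8 other SLRP genes listed were mostly scarce in skin. Optc, Chad, Nyx and Epyc were at 0.96 FPKM or less in all libraries. Besides Ecm2, Tsku (tsukushi) stood out with 8.80 ± 1.48 FPKM in unwounded skin and 13.8 ± 1.25 in wounds (SD, n = 12 each), and it rose over the 3 sites by 0.63 on the log2 scale (limma adjusted p = 2.7e-06). Podnl1, the paralogue of Podn, went from at most 0.23 FPKM in unwounded skin to 0.37 to 0.92 FPKM in wounds and was called higher (limma adjusted p = 9.4e-06). Chadl was called lower (-0.37, limma adjusted p = 0.00351). Thus 2 of the 5 tested genes of this list were higher over the 3 sites and 2 were lower, beside 33.3% and 29.4% of all genes.

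SLRP proteins act on collagen, carry sugar chains made by dedicated enzymes and are cut by proteases, and genes of each kind were listed for comparison. Of 12 fibrillar and fibril-associated collagen chains tested, 7 were higher and 3 lower over the 3 sites, beside 33.3% and 29.4% of all genes. The 3 that fell were Col1a1 (-0.84), Col1a2 (-1.09) and Col3a1 (-0.44), the main chains of dermal collagen, and the largest rises were of Col12a1, a fibril-associated chain (2.44, limma adjusted p = 4.3e-08), and Col5a3 (1.79, limma adjusted p = 1.1e-08). Dcn moved in the direction of the type I collagen chains and Bgn in the other.

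Against the same background of 62.7% of genes called, 4 of 7 enzymes that start glycosaminoglycan chains were higher and 1 was lower. Xylt1, which adds the xylose that begins the chain, rose by 0.55 on the log2 scale (limma adjusted p = 0.000744), Pxylp1 by 0.57, and Fam20b was the gene that fell (-0.16). Among 15 tested chondroitin and dermatan sulphate enzymes 9 were higher and 4 lower, led by Csgalnact1 (0.87) and Chsy1 (0.77) among the former and Chst3 (-0.56), a chondroitin sulphotransferase, and Csgalnact2 (-0.46) among the latter. Of 7 keratan sulphate enzymes 4 were higher, including B3gnt7 (0.93) and Chst2 (0.81), and Fut8 was lower (-0.23). B3gnt7, Chst2, Xylt1 and Chst3 were scarce, with group means from 0.43 (Chst3, back wounds) to 2.5 FPKM (Chst2, cheek wounds). At such levels the pseudocount compresses log2 changes. Median log2 changes of these 3 lists were 0.24, 0.19 and 0.35, against 0.02 for all genes and -0.42 for the SLRP genes. Between unwounded sites Chpf, which takes part in chondroitin polymerisation, was higher on the back than on the abdomen (1.15, limma adjusted p = 0.00319) and lower on the cheek than on the back (-1.49, limma adjusted p = 0.000218). Xylt2 was lower on the back (-0.66, limma adjusted p = 0.00903) and cheek (-0.50, limma adjusted p = 0.0366) than on the abdomen, and Chst14, a dermatan sulphotransferase, was lower on the back (-0.47, limma adjusted p = 0.0477).

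Of 13 tested genes of SLRP processing and cleavage, 12 proteases and the procollagen proteinase enhancer Pcolce, 9 were higher, the other 4 were not called and the median log2 change was 0.73; over all genes 33.3% were higher and 29.4% lower. Mmp13, a collagenase, had the largest rise (4.31, limma adjusted p = 5.8e-10), followed by Adamts4 (2.49), an aggrecanase. Bmp1, which removes the propeptide of biglycan, rose by 0.38 on the log2 scale (limma adjusted p = 0.00176), while Mmp2, a gelatinase, was at -0.02 (limma adjusted p = 0.872). Of 27 tested receptors and growth factors bound by SLRPs, 13 were higher and 6 lower, a share called near the 62.7% of all genes. Receptors of soluble biglycan were also higher, namely Tlr2 (1.23, limma adjusted p = 9.4e-09), Tlr4 (0.37, limma adjusted p = 0.00248) and their co-receptor Cd14 (3.72, limma adjusted p = 2.4e-09). Neutrophil and macrophage markers rose in the same wounds, and their part in the rise of these receptors was not tested. A link between these receptors and Bgn was not tested either. Tnf (2.95) and Tgfb1 (1.19) were higher and Tgfb2 (-1.08) and Bmp4 (-1.23) were lower. Tlr2, Tlr4, Tgfb1, Bmp1, Mmp2 and Col3a1 were chosen for mention after their values were seen.

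**Figure D5:**
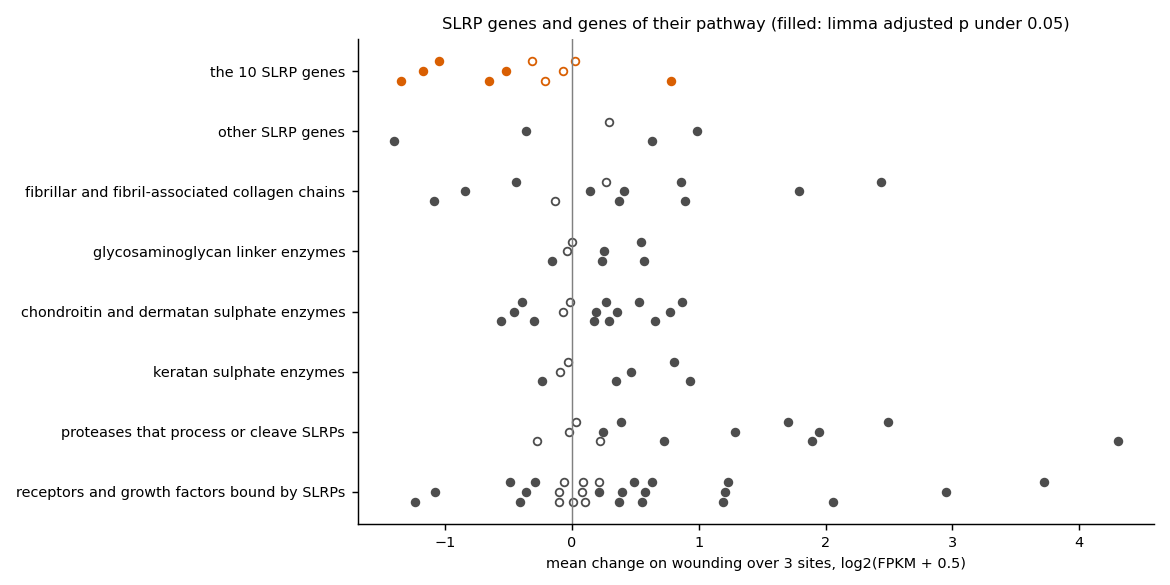
Mean change on wounding over the 3 sites in log2(FPKM + 0.5) (horizontal axis) for the 10 SLRP genes (orange) and for genes of 7 related lists (grey), filled where the limma adjusted p was under 0.05. The SLRP genes lie between -1.34 and 0.78 with a median of -0.42, and no gene of the protease list is filled to the left of 0.

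Across the 12 unwounded libraries, levels of several members went together. Pearson's r of log2(FPKM + 0.5) was 0.88 between Dcn and Lum, 0.87 between Ogn and Aspn and 0.81 between Prelp and Podn, and -0.56 between Prelp and Fmod. Without cheek mouse 4 these were 0.86, 0.80, 0.60 and -0.77. Over the 12 wounds r was 0.83 for Dcn and Lum, 0.85 for Ogn and Aspn, 0.48 for Prelp and Podn and -0.35 for Prelp and Fmod. For Omd and Aspn it was 0.80 in wounds, against 0.57 in unwounded skin. The libraries share sites and the scaling of FPKM, and these values are a description of 12 libraries, from 45 pairs. Of 13954 genes compared, those most like each member by this r over the 12 unwounded libraries were, for Dcn, Cpq (r = 0.95) and Dpt (0.94), the latter a matrix protein that binds decorin, for Lum, Cubn (0.95), for Bgn, Pglyrp4 (0.88) and Serpinh1 (0.85), the collagen chaperone, for Fmod, Coch (0.95), and for Podn, Pdgfrl (0.97) and Pcolce (0.95), which enhances procollagen processing. For Ogn it was Ctso (0.93), for Omd Rnase4 (0.89), for Aspn Zfp383 (0.92) and for Kera Zfp607a (0.96). The 3 genes most like Prelp were Mup9, Mup10 and Mup2, near-identical copies whose reads can be split among them, so these values are uncertain. Over the 12 wounds the same likeness was lower for Pglyrp4 (-0.16) and Serpinh1 (0.30) with Bgn, and it was 0.95 for Zfp383 with Aspn. Lower values in wounds were not particular to Bgn. They were 0.26 for Cubn with Lum, 0.27 for Zfp607a with Kera, 0.53 for Coch with Fmod and 0.53 for Rnase4 with Omd. Pdgfrl and Pcolce with Podn were at 0.57 and 0.52, Cpq and Dpt with Dcn at 0.74 and 0.79, and Ctso with Ogn at 0.79. Without cheek mouse 4, an alternative chosen after seeing the data, the order changed. Cpq then ranked 15 for Dcn (r = 0.87) and Dpt 22 (0.85), Zfp383 ranked 8 for Aspn (0.90), and Cubn 4 for Lum (0.93), while Ctso, Zfp607a and Mup9 ranked 1 for Ogn, Kera and Prelp. Of the other genes named here, Mup10 ranked 9 for Prelp and the rest 2 to 6.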

How the data were processed

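RNA from 24 skin samples, day 3 wound and adjacent unwounded skin of 12 mice, was sequenced on a BGISEQ-500. The authors mapped reads to GRCm38 (mm10), and the submitters' processing notes name HISAT2, Bowtie2 2.2.5, RSEM 1.2.12 and DESeq2. The deposited table holds FPKM per gene and library, estimated by the authors from RSEM and rounded to 2 decimals; rounding limits the precision of genes near 0, and read totals are not given. A deposited file of the authors' own comparisons, with log2 fold changes and adjusted p-values, was not used.

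Groups came from the labels, and replicates were separate mice. The members and gene lists were chosen with earlier results of these data known. Genes with at least 0.5 FPKM in 4 libraries of a comparison were kept, and log2(FPKM + 0.5) was fitted in limma 3.58.1 (R 4.3.3) across all kept genes with trended, robust empirical Bayes moderation and Benjamini-Hochberg adjustment. Adding 0.5 shrinks fold changes of low genes. Wounding was tested within mice, with the mouse as a block, and sites were compared within unwounded skin and within wounds. The pairing came from the labels (same animal), and wound and unwounded deviations of a mouse correlated at a mean of 0.32 (-0.03 to 0.53). Exact sign-change tests were two-sided over mice. Named genes were the 10 members, the other SLRP genes, the 2 called genes with the largest mean rise and the 2 with the largest mean fall of each pathway list, up to 2 listed genes called between unwounded sites, and the 3 genes most correlated with each member, of which the text gives the leading ones. The text marks 6 further genes chosen after their values were seen. Summed marker levels used 16 lists and comparisons used 7 pathway lists. Promoter windows of 250 bases were from RefSeq on GRCm38.p6. Figures and intervals used numpy 2.4.6, scipy 1.17.1 and pandas 2.3.3. On simulated data for wounding of the back, the fit recovered 90% of genes changed by 1 and 96% of genes changed by 2 on the log2 scale, with 11 false calls among 14142 genes. The simulation had independent noise and no mouse effect. Few genes were changed, at a single site and none at the lowest levels, unlike in these data. Alternatives covered the pseudocount, filter, scaling, threshold, block, samples in the fit and each mouse left out.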

Additional observations from a re-analysis of the deposited data

Results flagged for a closer look

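In 2 of 60 groups of 4 libraries examined, 10 genes in 6 groups, a library lay far from the other 3, and chance alone gives about 1 in 20. Bgn was at 705.8 FPKM in the wound of back mouse 2 and at 660.2 to 663.7 in the other back wounds, a gap of 0.923 of the range of the group. Prelp was at 40.1 FPKM in the wound of cheek mouse 2 and at 71.4 to 76.1 in the other cheek wounds, a gap of 0.869 of the range.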

How the results depend on the processing

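No called difference of a member changed direction under any alternative run. The counts of members called for wounding were 2 on the abdomen, 3 on the back and 2 on the cheek at an adjusted p under 0.001. On abdomen, back and cheek they were 7, 6 and 5 with quantile normalization and 7, 6 and 4 in fits of each site alone, and the abdomen count was 5 without the filter. Leaving out each mouse gave 4 to 7 on the abdomen, 4 to 6 on the back, 3 to 5 on the cheek and 6 to 8 for the mean of the sites. In unwounded skin, the 2 members called between back and abdomen became 0 without the filter, with median-ratio scaling and with quantile normalization, and 0 to 3 with a mouse left out. A model over all 24 libraries called 3 between back and abdomen, 1 between cheek and abdomen and 3 between cheek and back. It added Lum to Fmod and Kera between back and abdomen (limma adjusted p = 0.0483). Between cheek and abdomen it called Bgn (limma adjusted p = 0.0319). Between cheek and back it added Fmod and Kera to Prelp (limma adjusted p = 0.0180 and 0.0316). In the main fit, leaving out a mouse gave 0 to 1 for each of the pairs with the cheek. In wounds a mouse left out gave 0 between back and abdomen and 0 to 1 for the other 2 pairs, and the count for different responses remained at 0. The log2 rise of Bgn relative to Dcn was 1.30 and stayed between 1.22 and 1.36. The cause of these shifts was not tested. For these alternatives the share of all genes called is not given beside the counts. The counts therefore show how stable the calls were, and not whether members exceeded the background.

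Wounding was fitted with the mouse as a replicate block. Without the block 6, 5 and 5 members were called on the abdomen, back and cheek, 7 for the mean of the sites and 0 for different responses. Between sites the numbers name different mice (correlations of same-numbered deviations -0.37 to 0.22), and a block by number called 0, 0 and 1 members in unwounded skin and 0 in each comparison of wounds. Shares of all genes called are not given for these fits either.

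Scaling moved the balance of calls over all genes. For the mean wound change it was 4798 higher and 4247 lower, against 3983 and 5325 after quantile normalization, and on the back 4044 and 2578 against 3047 and 3601. In unwounded skin it was 74 higher and 299 lower between back and abdomen, against 84 and 148 after median-ratio scaling, 186 and 172 against 96 and 183 between cheek and abdomen, and 78 and 69 against 35 and 120 between cheek and back. In wounds it was 71 and 107 against 84 and 69, 1054 and 465 against 700 and 691, and 267 and 84 against 69 and 120 for the same pairs. Read totals are not given, so the counting error of low genes such as Kera could not be computed.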
